A study of Mus musculus with 2 samples.

Results

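The genes described here encode the molecules through which regulatory T cells (Tregs) hold other immune cells in check: the secreted factors Il10, Tgfb1, Ebi3, Il12a and Fgl2, the ectoenzymes Entpd1 and Nt5e, and the surface molecules Lag3, Ctla4 and Lrrc32. They were chosen by name, 10 genes in all, and every probe set that the platform annotation assigns to them was taken. Of the 10 genes, 9 had at least 1 probe set (15 in all), out of 18193 genes on the array with probe sets of their own. Lrrc32, which encodes GARP, the protein that anchors latent TGF-beta on the Treg surface, was matched to no probe set and was not analysed here.

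The study compared mouse Tregs that had been induced in vivo through dendritic cells (DCs), after immunization, in the presence or absence of Hopx, a small homeodomain protein that does not bind DNA itself. Cells positive for CD25 and Foxp3 were sorted by flow cytometry straight from the animals, and total RNA was hybridised to 1 array for Hopx-sufficient cells and 1 for Hopx-/- cells. Strain, age, antigen, the extent of the Hopx deletion and the number of animals behind an array are not given in the sources used here. The deposited values are on a log scale whose base is not stated and was taken as 2. The mean of both arrays had been taken off, so a probe set has a value on one array and the same value with the opposite sign on the other, or 0 on both. They hold the difference between arrays and no signal level, so whether a gene or a defining T cell marker was detected could not be checked. A difference below is the Hopx-deficient value minus the Hopx-sufficient value. With 1 array of each genotype there is no replicate error and no test, and the spread given is that between probe sets of a gene.

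Tregs suppress through several routes at once. They release IL-10, TGF-beta, IL-35 (a dimer of the Ebi3 and Il12a products) and FGL2, a fibrinogen-like protein that binds Fc receptors on antigen-presenting cells. CD39, the product of Entpd1, and CD73, the product of Nt5e, act in turn to convert extracellular ATP to adenosine, which restrains T cells through adenosine receptors. CTLA-4 competes with CD28 for the ligands CD80 and CD86 and removes them from the presenting cell, and LAG-3 binds MHC class II.

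The labels were checked first on Hopx. Its probe sets stood at 2.43 and 2.71 on the Hopx-sufficient array and at -2.43 and -2.71 on the Hopx-deficient array, a mean difference of -5.15. Foxp3, whose product was used in the sort, differed by 0.28 (1 probe set), and Il2ra, which encodes CD25, by -0.049 (2 probe sets).

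Il12a differed most and was lower on the Hopx-deficient array, and Entpd1, Ctla4 and Nt5e were the highest of the group. Of the 9 genes with probe sets, 6 were higher on the Hopx-deficient array, 2 were lower and Il10 was listed at exactly 0 on both. The 6 include Tgfb1, whose probe sets lay on opposite sides of 0. Over all 18193 genes, 51.4% were higher and 47.4% lower. The median difference of the 9 was 0.089 (0.15 without Il10), against 0.0082 over all genes. A threshold of 1.5-fold was used as a rule of size. Il12a was the only one of the 9 past it in either direction, where 1.57% of all genes were, and it was lower, as were 228 of all genes. None of the 9 was 1.5-fold higher, a size reached by 57 of all genes (0.313%). The central 95% of all genes ran from -0.47 to 0.38, and 8 of the 9 lay inside it. At a smaller threshold of 0.32 on the log2 scale, 2 of the 9 (Entpd1 and Ctla4) were higher, against 4.36% of all genes, and 1 (Il12a) was lower, against 6.61%. In RNA from sorted populations, more cells of a type and more RNA per cell cannot be told apart.

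**Figure D1:**
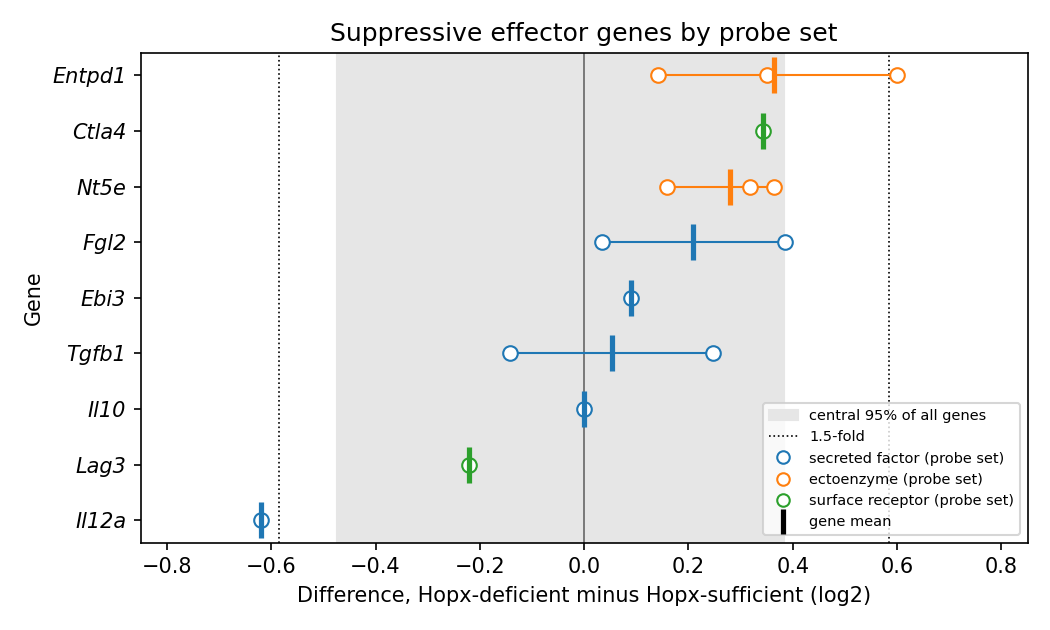
Difference between arrays on the log2 scale (horizontal axis) for each of the 9 effector genes (vertical axis); open circles are probe sets, thick bars gene means, the grey band the central 95% of all genes (-0.47 to 0.38) and dotted lines a 1.5-fold difference. Il12a lies left of the lower dotted line at -0.62, all 3 probe sets of Entpd1 and of Nt5e lie right of 0, and those of Tgfb1 lie on opposite sides.

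Il12a and Fgl2 have promoters shown here because the first is the effector gene that differed most and the second is the only one whose promoter window held a motif that was searched for. The windows are RefSeq promoter regions of build GRCm38.p6, from 250 bases before to 50 bases after an annotated start. Il12a has 2 annotated starts, at chr3:68690394-68690693 and chr3:68691174-68691473 (plus strand), and which of their transcripts its probe set measures was not examined. The Fgl2 window is chr5:21372423-21372722 (plus strand). Capitals mark the match to the AP-1 motif.
Il12a, first start: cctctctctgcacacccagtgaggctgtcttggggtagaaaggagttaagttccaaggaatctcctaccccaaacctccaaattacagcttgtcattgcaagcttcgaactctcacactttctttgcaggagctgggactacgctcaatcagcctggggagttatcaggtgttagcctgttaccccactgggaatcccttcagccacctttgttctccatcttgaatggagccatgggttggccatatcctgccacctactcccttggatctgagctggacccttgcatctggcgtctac
Il12a, second start: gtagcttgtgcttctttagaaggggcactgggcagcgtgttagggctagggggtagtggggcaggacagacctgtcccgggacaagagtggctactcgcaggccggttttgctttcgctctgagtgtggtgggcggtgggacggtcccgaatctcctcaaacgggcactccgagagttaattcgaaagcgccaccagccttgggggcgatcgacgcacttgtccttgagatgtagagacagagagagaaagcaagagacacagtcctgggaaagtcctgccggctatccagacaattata
Fgl2: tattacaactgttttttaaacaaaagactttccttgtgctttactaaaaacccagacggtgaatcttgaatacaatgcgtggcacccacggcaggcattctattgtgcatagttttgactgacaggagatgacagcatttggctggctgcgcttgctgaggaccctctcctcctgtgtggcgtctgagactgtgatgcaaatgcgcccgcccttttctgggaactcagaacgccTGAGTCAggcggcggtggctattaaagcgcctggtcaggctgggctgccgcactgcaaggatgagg
Windows were listed for 7 of the 10 genes (9 windows, with 2 each for Il12a and Entpd1), and none for Il10, Lag3 and Lrrc32. Both strands were searched for the AP-1 motif TGANTCA, the forkhead motif GTAAACA (Foxp3 is a forkhead factor) and the interferon-stimulated response element. Also searched for was the CArG box, bound by serum response factor, a factor that Hopx acts on in heart muscle. The single match was TGAGTCA in Fgl2, from 16 to 10 bases before the start. Of all 32851 windows of this length, 7.81% hold the AP-1 motif, 3.65% the forkhead motif, 3.44% the interferon-stimulated response element and 1.63% a CArG box, so windows without a match are the usual case. A match in these letters is a description of the window and no evidence of binding.

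Among the secreted factors, Il12a, the alpha chain that IL-35 shares with IL-12, had a value of 0.31 on the Hopx-sufficient array and -0.31 on the Hopx-deficient array, and was thus 1.54-fold lower in Hopx-deficient cells. It is measured by 1 probe set, and only 0.945% of genes had a lower difference. Ebi3, the beta chain of IL-35 and of IL-27, stood at -0.045 and 0.045, a difference of 0.089 (1 probe set). The chains of IL-35 were thus 0.71 apart on the log2 scale, and most of that gap came from Il12a. Ebi3 lay close to the middle of all genes (60.7% of them were at least as far from 0), so its direction is not settled.

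Of the receptors for the IL-12 family, Il12rb1, a chain of the IL-12 receptor, was the lowest of all the partner genes examined, at -0.54 with 1 probe set. Its partner chain Il12rb2, which is also a receptor chain for IL-35, differed by -0.11. Il6st, which encodes gp130, the chain used by IL-27 and IL-35, differed by 0.41, with its 4 probe sets between 0.24 and 0.67. Il27ra differed by 0.23, and the remaining chains Il12b and Il23a by 0.058 and -0.11. Of these 6 genes 3 were higher and 3 lower, with a median of -0.028, and none was 1.5-fold apart; Il27 had no probe set of its own.

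Tgfb1, which encodes TGF-beta 1, is represented by 2 probe sets that disagreed. The probe set designed on its RefSeq transcript stood at 0.071 on the Hopx-sufficient array and -0.071 on the Hopx-deficient array, a difference of -0.14. The probe set designed on an expressed sequence tag stood at -0.12 and 0.12, a difference of 0.25. Their gap of 0.39 is wide for this array: over the 4695 genes with 2 probe sets the median gap was 0.16, and 12.4% had one at least as wide. The mean of 0.053 therefore has no settled direction.

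Around Tgfb1, 7 of 11 genes that activate or receive TGF-beta were higher (51.4% of all genes were) and 4 lower, with a median of 0.0032. Tgfbr3, the co-receptor betaglycan, was the lowest at -0.26, with probe sets at -0.60 and 0.072. Tgfbr1, the signalling receptor and the highest of these genes, differed by 0.26 with its 3 probe sets all at 0.26. Tgfbr2, the ligand-binding receptor, differed by 0.20, but its 3 probe sets ran from -0.035 to 0.33. Nrros, which anchors latent TGF-beta on myeloid cells, differed by -0.20, and Furin, the protease that cuts the TGF-beta precursor, by -0.13. Itgb8, an integrin chain with which Tregs activate latent TGF-beta, differed by 0.13.

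Il10 gave no difference that can be read. Its 1 probe set is listed at exactly 0 on both arrays. The uncentred values are not given, so whether they were identical cannot be checked. Such zeros on both arrays are listed for 972 of the 45101 probe sets (2.16%). The smallest value above 0 in the table is 9.35e-05, so these zeros stand apart from the other values. What produced them was not tested, and the entry for Il10 gives no measured change and no measured lack of one. Il10rb, a chain of the IL-10 receptor, was the highest partner gene at 0.44, with its 2 probe sets both at 0.44, and Il10ra, the other chain, stood at -0.0028.

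Fgl2 was higher by both of its probe sets, which were designed on the same expressed sequence tag. The first stood at -0.017 on the Hopx-sufficient array and 0.017 on the Hopx-deficient array, and the second at -0.19 and 0.19. The differences of 0.034 and 0.38 agreed in side but not in size, with a mean of 0.21. Over all genes with 2 probe sets, 30.1% had both above 0. The genes of its Fc receptors went opposite ways, with the inhibitory receptor Fcgr2b at -0.27 (5 probe sets from -0.56 to 0.068) and Fcgr3 at 0.10.

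**Figure D2:**
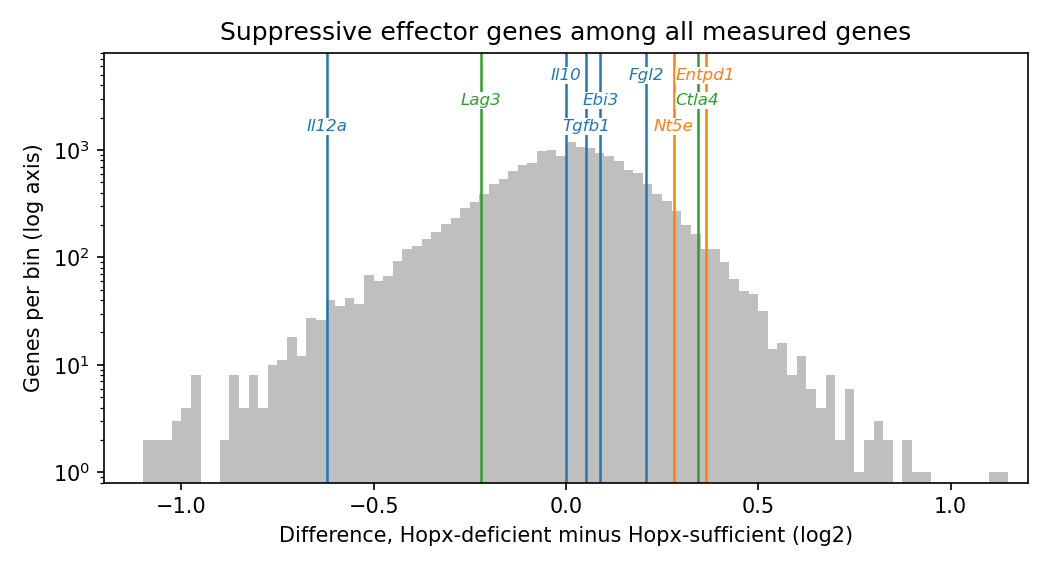
Distribution of the difference between arrays (log2, horizontal axis) over all 18193 genes, with the number of genes per bin on a log axis and a vertical line for each of the 9 effector genes; 16 genes below -1.2, Hopx among them, are outside the plot. Il12a lies in the lower tail at -0.62 and Entpd1 (0.36) and Ctla4 (0.34) near the edge of the upper tail, with the others nearer to the middle.

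The ectoenzymes of the adenosine route were higher by every probe set. Entpd1 had values of -0.18, -0.071 and -0.30 on the Hopx-sufficient array and 0.18, 0.071 and 0.30 on the Hopx-deficient array. Its differences of 0.35, 0.14 and 0.60 gave a mean of 0.36 ± 0.23 (SD over 3 probe sets of 1 pair of arrays), or 1.29-fold, and 2.96% of genes were higher. The largest of the 3 was 1.51-fold and came from a different expressed sequence tag than the other two, which share theirs.

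Nt5e had values of -0.18, -0.16 and -0.080 on the Hopx-sufficient array and 0.18, 0.16 and 0.080 on the Hopx-deficient array. Its differences of 0.36, 0.32 and 0.16 gave a mean of 0.28 ± 0.11 (SD over 3 probe sets), or 1.21-fold, and 6.5% of genes were higher. Among the 2366 genes with 3 probe sets, 20.2% had all 3 above 0 and 8.11% all 3 above 0.1, as Entpd1 and Nt5e had; the level of 0.1 was chosen after the values were seen.

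By their means the genes of enzymes that use up adenosine lay below 0, as did 47.4% of all genes. Ada, adenosine deaminase, which converts adenosine to inosine, was at -0.53 (1.44-fold lower, 1 probe set), the second lowest of the partner genes. Adk, adenosine kinase, which returns adenosine to AMP, was at -0.14 with its 6 probe sets from -0.30 to 0.10. The adenosine transporter gene Slc29a1 (-0.021), Dpp4 (0.029), whose product binds adenosine deaminase at the cell surface, and the ATP receptor gene P2rx7 (0.11) were nearer to 0. Of the 9 genes listed for this route, 5 had probe sets of their own. Of these 5, 2 were higher and 3 lower, with a median of -0.021. The adenosine receptor genes Adora2a and Adora2b had no probe set of their own and were not analysed here.

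Ctla4 stood at -0.17 on the Hopx-sufficient array and 0.17 on the Hopx-deficient array, a difference of 0.34 (1.27-fold, 1 probe set), and 3.63% of genes were higher. In the genome Ctla4 lies between Cd28, the costimulatory receptor that shares its ligands, and Icos, the inducible costimulator. Cd28 differed by 0.34, with probe sets at 0.21 and 0.46, and Icos by 0.36, with 3 probe sets between 0.30 and 0.43. The 3 neighbouring genes thus had nearly the same difference, while the genes next to them on either side, Raph1 (0.061) and Pard3b (0.10), were closer to 0. This locus was picked after its values were seen. Differences of this size were not particular to it, since T cell markers outside it differed by 0.21 (Cd2) to 0.33 (Cd5). Other effector genes did not all match their neighbours, as with Ebi3 (0.089) between Zfp119b (0.70) and Yju2 (0.057). Trat1, an adaptor that carries CTLA-4 to the surface, differed by 0.30, with its 2 probe sets at 0.27 and 0.33. Lrba, which protects CTLA-4 from degradation, differed by -0.11, but its 4 probe sets ran from -0.42 to 0.089. Ap2m1, the clathrin adaptor subunit that takes CTLA-4 back into the cell, differed by -0.087, and Rab11a, a GTPase of recycling vesicles, by -0.093. The ligand genes Cd80 and Cd86, which are expressed chiefly by antigen-presenting cells, differed by -0.14 and 0.18. The 4 probe sets of Cd80 ran from -0.35 to 0.028, and those of Cd86 lay at 0.072 and 0.28.

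Lag3 stood at 0.11 on the Hopx-sufficient array and -0.11 on the Hopx-deficient array, a difference of -0.22 (1.16-fold lower, 1 probe set). Of the 2 surface molecules measured, Ctla4 was higher and Lag3 lower, and 12.6% of genes had a lower difference than Lag3. Cd4, to which LAG-3 is related and next to which Lag3 lies in the genome, differed by -0.0056. Adam10 and Adam17, the proteases that shed LAG-3 from the cell, differed by 0.11 and 0.15. The 4 probe sets of Adam10 ran from -0.081 to 0.42, and the 3 of Adam17 from 0.0073 to 0.31. The LAG-3 ligand genes Fgl1 and Lgals3 differed by 0.095 and 0.39. Differences of 18 spike-in control probe sets, whose target is added during hybridization, lay between -0.21 and 0.015 with a median of -0.12. Lag3 lay just below all 18, and Il12a further below. By their means Tgfb1, Ebi3, Fgl2, Nt5e, Ctla4 and Entpd1 lay above all 18. A place above them is common, since the highest spike-in, at 0.015, lay close to the median of all genes (0.0082). Of all genes, 39.6% were higher than Tgfb1, the lowest of those named. Spike-ins carry technical differences only and give no measure of the spread between cell samples.

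In order of difference the genes ran from Entpd1 (0.36) through Ctla4, Nt5e, Fgl2, Ebi3 and Tgfb1 to Lag3 and Il12a (-0.62), with Il10 left out. The SD between probe sets within a gene was 0.18 over the 9010 genes with 2 or more. Neighbours in this order lay closer than that from Entpd1 down to Tgfb1, and the steps from Tgfb1 to Lag3 and from Lag3 to Il12a were wider. The step from Tgfb1 to Lag3 rests on the mean of probe sets that disagreed, of which the one at -0.14 lay near Lag3 (-0.22). This SD describes single probe sets and is no measure of the spread of a difference between genes.

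**Figure D3:**
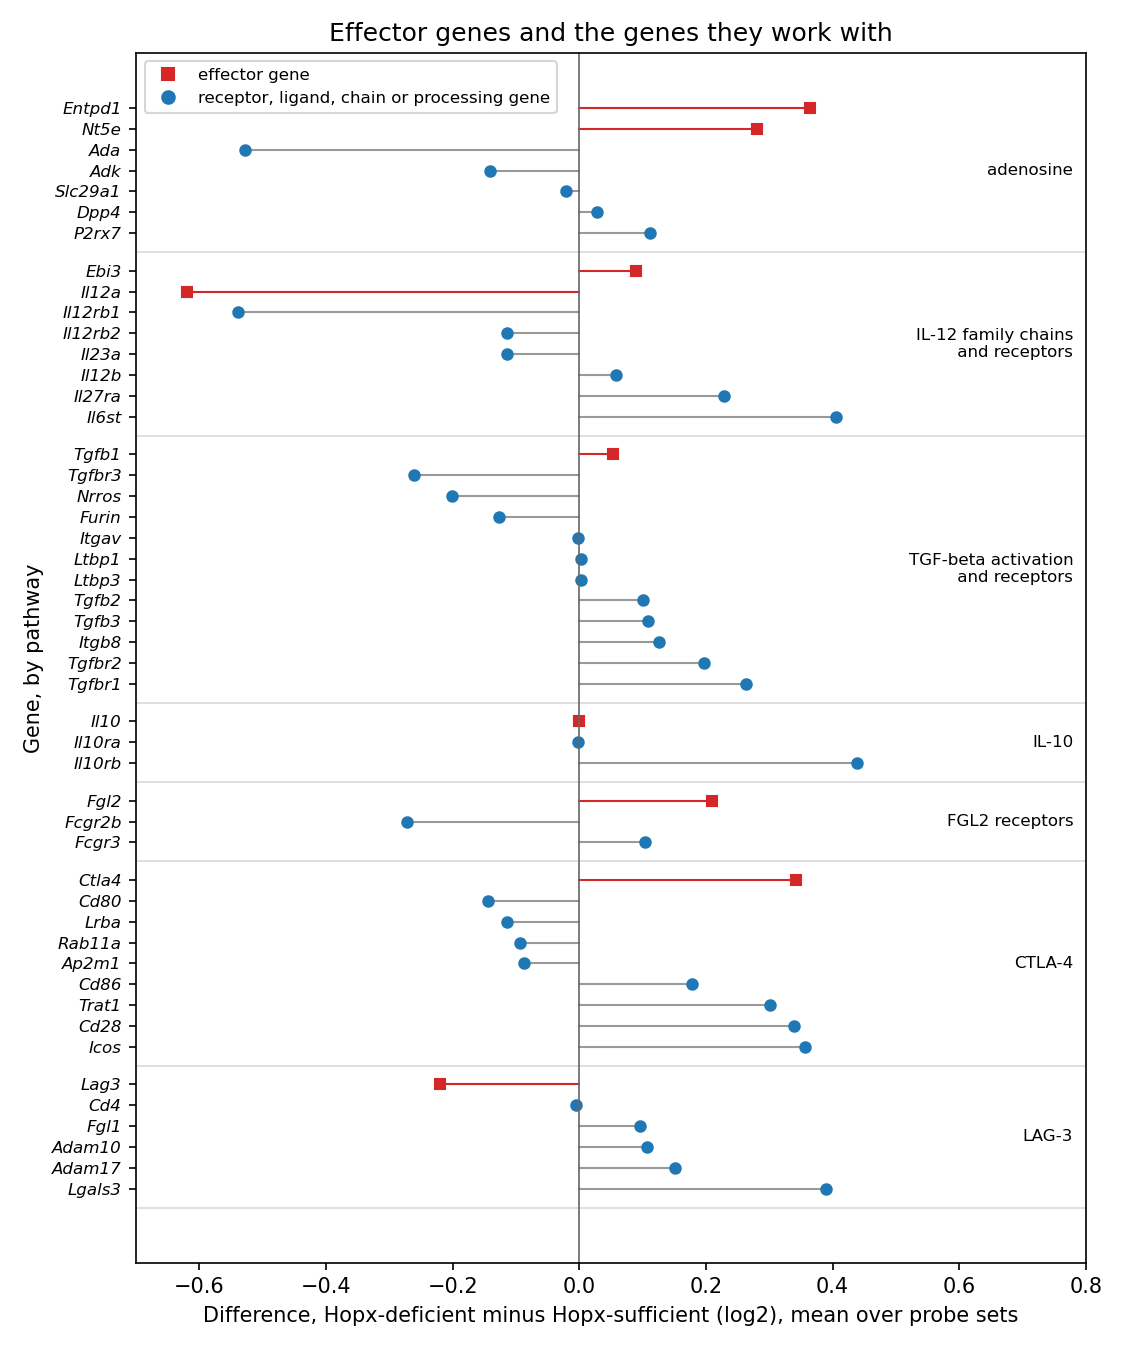
Difference between arrays (log2, horizontal axis, mean over probe sets) for the effector genes (red squares) and 39 genes of their receptors, ligands, partner chains and processing (blue circles), by pathway. Entpd1 and Nt5e lie right of 0 and Ada (-0.53) left of it, Il12a and Il12rb1 (-0.54) lie left, and Ctla4, Cd28, Icos and Trat1 lie between 0.30 and 0.36.

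Across all receptors, ligands, partner chains and processing genes of the effectors, 39 of 44 listed genes were measured. Of these, 22 were higher and 17 lower, none was 1.5-fold apart, and the median was 0.029. Over all genes, 51.4% were higher, 47.4% were lower and 1.57% were 1.5-fold apart. Of 21 transcription factors known to act on the effector genes, 15 were higher and 6 lower, with a median of 0.12 and none 1.5-fold apart. Egr2, a factor that acts on Lag3 and Il10 in regulatory cells, was the highest at 0.40 (probe sets at 0.34 and 0.46), followed by Tox at 0.33. Irf4, needed for effector Tregs, was the lowest at -0.41 (probe sets at -0.57 and -0.24), followed by Bhlhe40 at -0.11. Maf and Prdm1, which drive Il10, differed by 0.10 and 0.18, but the 6 probe sets of Maf ran from -0.14 to 0.37.

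Other suppressive and surface molecules of Tregs were listed by 23 names, of which Folr4 is an older name of Izumo1r. Of the 19 genes measured, 13 were higher (51.4% of all genes were) and 6 lower, with a median of 0.089. Gzmb, granzyme B, a cytotoxic route of suppression, was 4.45-fold lower (-2.16, 1 probe set) and the single one past 1.5-fold. Prf1, perforin, which works with granzymes, differed by 0.089, but its probe sets lay at -0.18 and 0.36. Nrp1 (0.54) and Gpr83 (0.49) were highest, and Cd274, which encodes PD-L1, was the lowest after Gzmb at -0.28. The value of Gzmb thus lay far outside the range of the effector genes, from -0.62 to 0.36.

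Markers of T cells and of myeloid cells had differences of the size seen in the effector genes. All 6 measured T cell markers were higher, where 51.4% of all genes were, from 0.21 (Cd2) to 0.33 (Cd5), with a median of 0.26. Set against that median, Entpd1 differed by a further 0.11, Ctla4 by 0.085 and Nt5e by 0.023, while Fgl2 (-0.048), Ebi3 (-0.17), Tgfb1 (-0.20), Lag3 (-0.48) and Il12a (-0.88) lay below it. Of 5 CD4 Treg markers 3 were higher, with a median of 0.11, from -0.049 (Il2ra) to 0.37 (Ikzf2). Of 14 DC and macrophage markers, 10 were higher and 4 lower, from -0.38 (Lyz2) to 0.89 (Mrc1), with a median of 0.30. Among them the DC markers Itgax, Flt3, Zbtb46 and Xcr1 were at -0.10, -0.042, 0.0047 and 0.27. Of the macrophage markers, Lyz2 and Marco (-0.047) were lower and the rest higher, from 0.25 (Csf1r) upwards. Mrc1 was the only marker past 1.5-fold. Entpd1, Nt5e and Fgl2 are also expressed by myeloid cells. Of 6 B and plasma cell markers 5 were lower (median -0.093), from -0.41 (Cd79a) to 0.023 (Jchain). Of 6 CD8 T and NK cell markers 4 were lower (median -0.18), from -0.41 (Klrd1) to 0.44 (Nkg7). Of 5 neutrophil, mast cell and erythroid markers 3 were higher (median 0.0043), from -0.21 (Mpo) to 0.14 (S100a8). Levels are not held in the table, so how much RNA any of these cells gave is unknown, and their part in the differences of the effector genes was not tested.

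**Figure D4:**
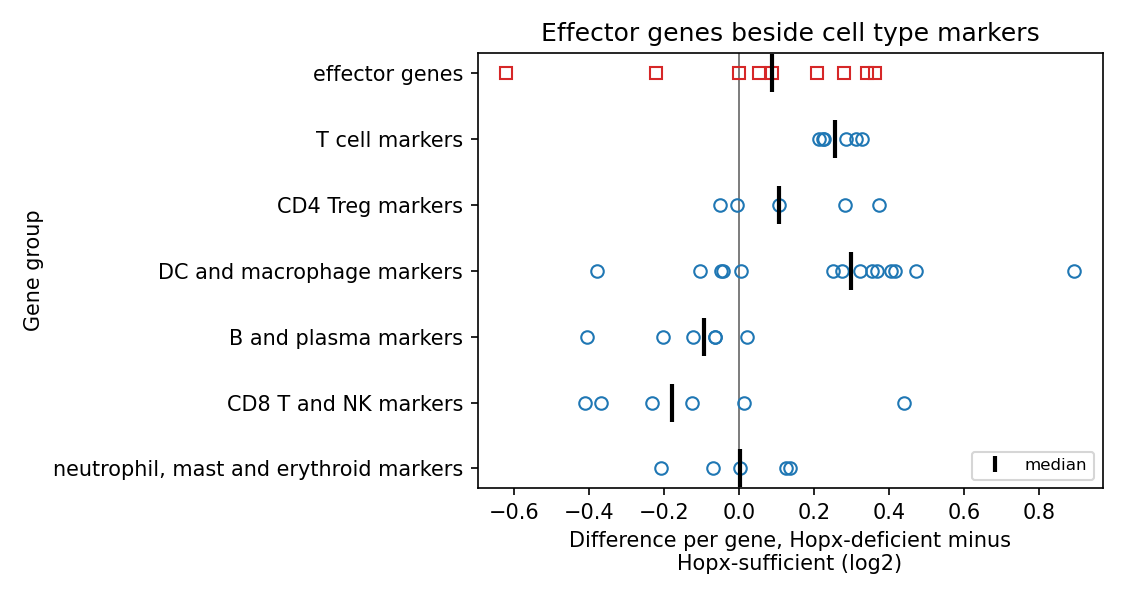
Difference per gene between arrays (log2, horizontal axis) for the 9 effector genes (red squares) and for markers of T cells, CD4 Tregs and other cell types (blue circles), with black bars for medians. The T cell markers lie between 0.21 and 0.33, a range that holds Nt5e and lies just below Ctla4 and Entpd1, and Il12a lies below every marker.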

How the data were processed

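Biotin-labelled total RNA from sorted Tregs was hybridised to single-colour 3' expression arrays of 45101 probe sets, 1 array for each genotype, per the labels' protocols. The authors deposited values on a log scale, taken here as log2, from which the mean of both arrays had been subtracted: in the table the columns are mirror images, with row sums of at most 1e-06. Scanner software, summarisation, normalization and log base are not given in the sources used here; base 2 was assumed, and with natural logs every difference would be 1.44 times as large. The number of arrays limits the precision.

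Gene names came from the platform annotation of 2016, updated through a RefSeq gene table (GRCm38.p6). Of the 34945 probe sets with 1 symbol, 34741 had a gene ID found there. Probe sets with several symbols (932), none (9160) or control sequence (64) were left out. The difference was Hopx-deficient minus Hopx-sufficient, not centred, averaged over the probe sets of a gene. The effector genes and gene lists were chosen with earlier results of these data known. The text names all effector genes, genes past 1.5-fold and those at the ends of each list; others, including pathway members and genomic neighbours, were chosen after their values were seen. The scripts were tested on simulated data. Alternatives were centring, other probe set summaries, thresholds of 0.32 (log2) and 2-fold, natural logs, removal of probe sets with the suffixes _s_at and _x_at or with the finest value steps, and leaving out Il10. Python 3.11.15, numpy 2.4.6, pandas 2.3.3 and matplotlib 3.10.9 were used.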

Additional observations from a re-analysis of the deposited data

How the results depend on the processing

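No paired analysis was possible because there was 1 array per genotype, which also leaves none to omit. Most alternatives could hardly change a sign here: natural logs only rescale, centring shifts every gene by 0.0075, and 5 of the 9 genes have 1 probe set. Where probe sets could disagree, those of Tgfb1 did, at -0.14 and 0.25. Of 97 recomputed values, 91 moved by less than the SD between probe sets of a gene or, for counts, did not change. When each gene was represented by its most different probe set, Tgfb1 was at 0.25 and Entpd1 at 0.60, which put 1 effector gene past 1.5-fold higher instead of 0. With natural logs Il12a was at -0.90. At 2-fold the count of lower genes was 0 instead of 1, and at a threshold of 0.32 on the log2 scale the count of higher genes was 2 instead of 0. Leaving out Il10, an alternative chosen after seeing the data, gave a median of 0.15 instead of 0.089. None of the effector genes' probe sets has a suffix for cross-hybridisation or the finest value steps, so removing such probe sets left their values as they were. With 1 array a genotype, no difference can be set against the spread between animals or sorts.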
